A study of Mus musculus with 10 samples.

Results

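The miR-17-92 and miR-106a-363 clusters were measured by 8 probes of a NanoString nCounter panel that held 566 mouse miRNA probes. The probes, listed on the panel as mmu-miR-106a+mmu-miR-17, mmu-miR-18a, mmu-miR-18b, mmu-miR-19a, mmu-miR-19b, mmu-miR-20a+mmu-miR-20b, mmu-miR-92a and mmu-miR-363, were picked by name, as all those for a mature product of either cluster. The choice used no counts, but earlier results of these data were known when it was made. The samples were B cell progenitors from C57BL/6 mouse fetal liver at E14.5, transformed with a retroviral vector (pMSCV-v-Abl) that carries the Abelson kinase, under which early B-lineage cells keep dividing in vitro. There were 5 wild type cultures (1 to 5) and 5 homozygous Bim3’UTRmut/mut cultures (6 to 10). In both genotypes, transformation was helped by interleukin-7, so the virus and this treatment are shared by all groups. The labels do not say which bases of the Bim 3′UTR are changed, or whether the cultures of a genotype came from separate embryos. The comparison asks whether the products of the clusters that target Bim were present at similar levels, and in similar proportion to each other, in the 2 genotypes. Bim transcripts were not analysed here, which leaves the genotypes as labelled, without a check.

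Both clusters are polycistrons: a single primary transcript is cut into several hairpins, and each hairpin gives a mature miRNA of about the same length. A miRNA finds its targets mainly through its seed, bases 2 to 8, so miRNAs that share a seed have largely overlapping targets. The miR-17-92 cluster, also known as an oncogene of B cell lymphoma, is needed for the survival of pro-B cells. It acts in part by repressing Bim (Bcl2l11), a BH3-only protein that triggers apoptosis. The miR-106a-363 cluster is its X-linked paralog.

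The 8 probes read 10 mature miRNAs from 12 hairpin genes, 6 in each cluster. All 10 were matched to RefSeq (build GRCm38.p6), which places the hairpins of miR-17-92 on the plus strand at chr14:115043671-115044506 and those of miR-106a-363 on the minus strand at chrX:52741693-52742567. In that annotation the long non-coding RNA Mir17hg contains the whole of the miR-92a-1 hairpin and 2 bases of the miR-19b-1 hairpin, and the other 4 hairpins lie before its annotated start. The long non-coding RNA Kis2 shares 5 bases with the miR-106a hairpin and none with the other 5 hairpins of that cluster. These are annotated ends, and the ends of the primary transcripts were not measured here. The panel names no arm, and each name was read as the arm whose seed recurs among the cluster miRNAs. The mature sequences are shown because the seed, in capitals, sorts the members into 4 families, and because the bases outside it show what a shared probe covers.
miR-17: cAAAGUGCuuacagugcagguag
miR-106a: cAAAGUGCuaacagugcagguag
miR-20a: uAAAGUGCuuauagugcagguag
miR-20b: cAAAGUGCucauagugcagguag
miR-18a: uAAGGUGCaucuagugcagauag
miR-18b: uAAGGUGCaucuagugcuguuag
miR-19a: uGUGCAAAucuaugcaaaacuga
miR-19b: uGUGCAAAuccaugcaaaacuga
miR-92a: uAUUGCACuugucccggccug
miR-363: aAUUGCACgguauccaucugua
Counted from 1 at the 5′ end, miR-106a differs from miR-17 only by A10U, and the panel reads both with 1 probe. miR-20a differs from miR-20b by U1C and U10C, and they too share a probe. Counts of these probes therefore cannot be assigned to either cluster. miR-19a and miR-19b differ as little (U11C) but have a probe each, and miR-18a differs from miR-18b by A18U and A20U. miR-17 and miR-20a differ by C1U and C12U, so the 2 shared probes have nearly identical targets, and cross-binding between them was not tested. miR-19b and miR-92a are each encoded in both clusters by separate hairpins with the same mature sequence. By sequence, miR-18a and miR-19a come only from miR-17-92, and miR-18b and miR-363 only from miR-106a-363. The probe sequences were not seen here, so how far the miR-18 and miR-19 probes tell their paralogs apart was not tested.

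Values are counts of single barcoded molecules. Total counts of mouse miRNA probes ran from 240469 to 354826 per library, from 100 ng of total RNA each. Detection was set at a count above the mean + 2 SD of the 8 negative control probes of the same library, which was 90.5 to 127. The test covered the 116 of 566 probes that did so in 5 or more libraries. All libraries were on 1 cartridge as far as their run names show. By the same names, wild type was in lanes 1 to 5 and mutant in lanes 6 to 10. The number read as the lane is also the sample number. Lane and genotype can therefore not be told apart. Of 5 lymphoid and pan-haematopoietic marker probes (miR-142-3p, miR-142-5p, miR-150, miR-155 and miR-181a), all were tested, and 48 of their 50 values exceeded the threshold. Their summed counts, 24666 to 33774 (wild type) and 25065 to 41180 (mutant), came mostly from miR-142-3p (20401 to 29587). miR-181a counted 10918 and 10817 in mutant 9 and 10 against 3210 to 4585 elsewhere, and miR-150 ranged from 60 in wild type 5 to 961 in mutant 8. Of 10 probes for erythroid, myeloid, endothelial, hepatocyte, muscle and neural cells, none was above background in enough libraries, and 5 of their 100 values exceeded it. Their summed counts were 453 to 529 (wild type) and 388 to 720 (mutant). The highest single count, 234 of the endothelial miR-126-3p, was in mutant 10. The myeloid miR-223 was also highest there, at 137, against 17 to 25 in the other mutant libraries and 28 to 96 in wild type. Mutant 9 and 10 stood apart from the other libraries in several miRNAs, among them the NF-kB target miR-146a, which counted 15130 and 21250 there and 439 to 3292 elsewhere. The part of these marker differences in the results was not tested, and results that rest on mutant 9 and 10 are given with and without them. In bulk RNA from a whole culture, fewer cells that make a miRNA and less miRNA per cell cannot be told apart.

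Of the 8 probes, 7 were above background in all 10 libraries and passed the filter, and miR-92a did not. Their mean normalised counts (raw counts divided by a library's TMM-scaled total, relative to the mean library) spanned a wide range. The miR-20a/miR-20b probe was highest at 17651, which ranked 3 among the 116 probes tested. Next came miR-106a/miR-17 at 16603 (rank 5), miR-19a at 9906 (rank 8) and miR-19b at 2870 (rank 21). The scarce members were miR-18a at 320 (rank 63), miR-18b at 232 (rank 75) and miR-363 at 210 (rank 82). In this order, the ranges over the libraries overlapped between miR-20a/miR-20b and miR-106a/miR-17, between miR-18a and miR-18b, and between miR-18b and miR-363. miR-19a and miR-19b stood clear of their neighbours. Raw counts of miR-18a, miR-18b and miR-363 were 1.36 to 3.97 times the detection threshold. On average they were 6.26, 4.61 and 4.14 times the mean of the negative controls, which was not subtracted here. The mature miRNAs have similar lengths, 21 to 23 bases, but probes differ in how well they are ligated and bound, so this order is one of counts and not of molecules per cell.

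**Figure D1:**
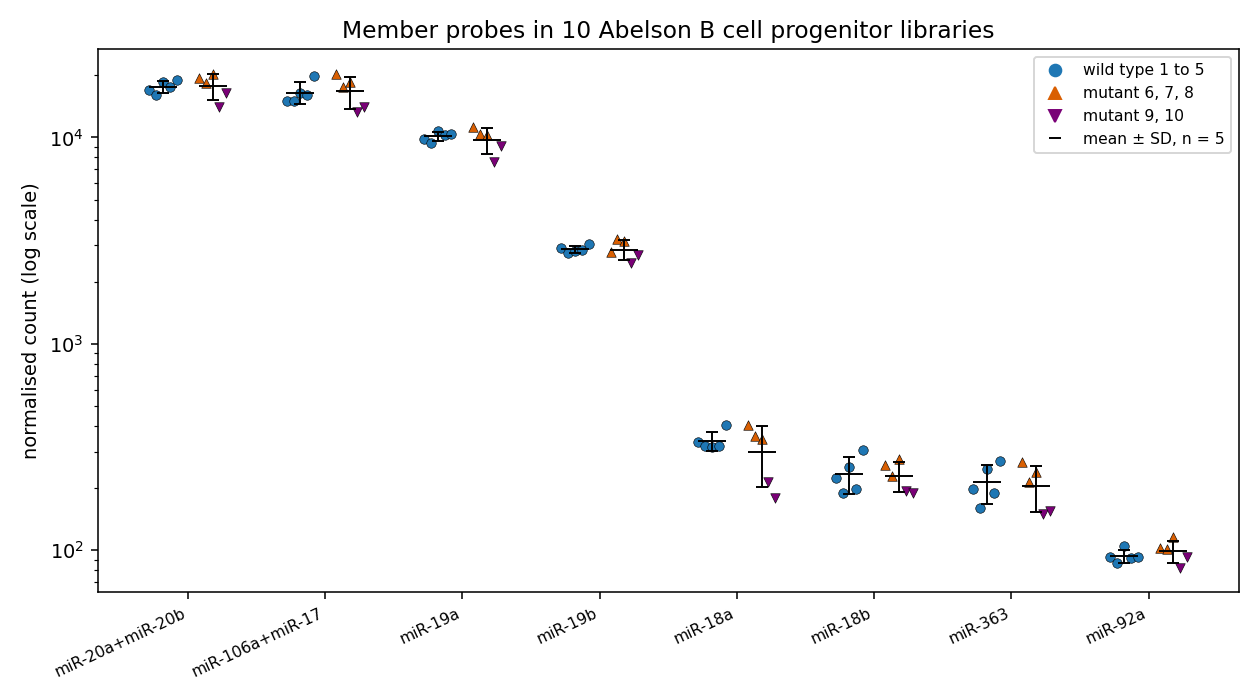
Normalised count (log scale) of each member probe in the 5 wild type and 5 mutant libraries, with the mean ± SD of each genotype (n = 5). The 4 abundant probes lie between 2467 and 20251 and the 4 scarce ones between 82.3 and 406, and mutant 9 and 10 (downward triangles) hold the 2 lowest mutant values of all 8 probes.

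The miR-17 seed family, whose members repress Bim and cell cycle inhibitors, made up most of the members' counts. The miR-20a/miR-20b probe counted 16653, 15464, 17795, 15618 and 16960 in wild type 1 to 5 and 18100, 18764, 21486, 17277 and 17449 in mutant 6 to 10. Raw counts were thus somewhat higher in the mutant libraries, with overlap. Totals of mouse miRNA counts exceeded every wild type library (highest 266022) in mutant 8, 9 and 10 (287546, 354826 and 331407). In mutant 6 and 7 they were inside the wild type range, at 251192 and 255173. After normalisation the mean was 17606 ± 1198 for wild type and 17696 ± 2494 for the mutant (SD, n = 5 per genotype). The log2 fold change, mutant over wild type, was 0.01, and its 95% interval ran from -0.23 to 0.24 (edgeR adjusted p = 0.970). The genotypes overlapped, and the mutant values spread past both ends of the wild type range: 14078 in mutant 9 was below every wild type library and 19427 and 20251 in mutant 6 and 8 were above every one.

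The miR-106a/miR-17 probe had means as close but was more uneven among libraries. It counted 14819, 14390, 15716, 14303 and 17778 in wild type 1 to 5 and 18860, 17981, 19646, 16287 and 15012 in mutant 6 to 10. Wild type 5 was the highest of its genotype, and mutant 10 the lowest of its own. The normalised means were 16465 ± 2021 and 16741 ± 2973 (SD, n = 5 per genotype). Their log2 fold change was 0.02 (95% interval -0.28 to 0.32; edgeR adjusted p = 0.970).

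The miR-19 seed family, the part of miR-17-92 held to account for much of its oncogenic action, had the lowest coefficients of variation of the members in wild type cells, 5.42% for miR-19a and 3.83% for miR-19b. miR-19a counted 9657, 8993, 10295, 9128 and 9299 in wild type 1 to 5 and 10513, 10556, 10844, 9340 and 9685 in mutant 6 to 10. Its normalised means were 10106 ± 548 and 9705 ± 1409 (SD, n = 5 per genotype), and the log2 fold change was -0.06 (95% interval -0.29 to 0.17; edgeR adjusted p = 0.842). miR-19b counted 2862, 2656, 2704, 2546 and 2728 in wild type 1 to 5 and 2608, 3272, 3344, 3027 and 2867 in mutant 6 to 10. With means of 2879 ± 110 and 2862 ± 313 (SD, n = 5 per genotype), its log2 fold change was -0.01, with the narrowest interval of the 7, -0.20 to 0.18 (edgeR adjusted p = 0.970), or 0.870 to 1.14 as a fold. For both, the mutant range contained the wild type range after normalisation. The ratio of miR-19a to miR-19b counts was 3.51 ± 0.186 for wild type and 3.39 ± 0.372 for the mutant (SD, n = 5 per genotype), although miR-19b has a gene in each cluster and miR-19a in 1. Because the probes may differ in efficiency, this ratio says nothing of molecules.

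The miR-18 seed family has a seed 1 base away from that of miR-17 and is much the scarcer on this panel. miR-18a counted 331, 307, 302, 286 and 360 in wild type 1 to 5 and 378, 365, 368, 263 and 191 in mutant 6 to 10. Mutant 6, 7 and 8 were above every wild type library in raw counts, and mutant 9 and 10 below every one. After normalisation mutant 9 and 10, at 214 and 179, stayed below the wild type range of 315 to 403, while mutant 6, 7 and 8 lay at 347 to 406. The means were 339 ± 36.7 and 301 ± 98.3 (SD, n = 5 per genotype). The log2 fold change of -0.17 was the largest in size among the 7 probes, and it had the widest interval, -0.68 to 0.33 (edgeR adjusted p = 0.748). Without mutant 9 and 10 it was 0.13 (edgeR adjusted p = 0.539), on the other side of 0.

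Its paralog miR-18b, from the X-linked cluster, had no mutant library outside the wild type range after normalisation. It counted 221, 183, 241, 176 and 274 in wild type 1 to 5 and 242, 233, 292, 238 and 203 in mutant 6 to 10. The normalised values were 190 to 307 for wild type and 190 to 275 for the mutant. The means were 234 ± 47.3 and 229 ± 38.1 (SD, n = 5 per genotype), and the log2 fold change was -0.03 (95% interval -0.40 to 0.35; edgeR adjusted p = 0.970). Counting error alone was 7.54% at the lowest count of miR-18b and 7.24% at that of miR-18a, against 0.804% for miR-20a/miR-20b.

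The miR-92 seed family, which also targets Bim, was represented by miR-363 and miR-92a. miR-363, the last hairpin of the X-linked cluster, counted 196, 154, 238, 169 and 243 in wild type 1 to 5 and 249, 219, 255, 183 and 166 in mutant 6 to 10. Wild type 3 and 5 and mutant 6 and 8 were the high libraries, and the genotypes overlapped. The normalised means were 214 ± 45.6 and 205 ± 51.9 (SD, n = 5 per genotype), and the log2 fold change was -0.06 (95% interval -0.53 to 0.41; edgeR adjusted p = 0.969).

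miR-92a, which closes miR-17-92 and has a second gene in miR-106a-363, was at background. It counted 91, 83, 100, 82 and 83 in wild type 1 to 5 and 95, 104, 123, 101 and 99 in mutant 6 to 10, and exceeded the threshold in 1 library, mutant 8, where the threshold was 106. Its count was 1.46 to 3.16 times the mean of the negative controls. In 6 of 10 libraries at least 1 negative control probe counted as many or more. A level of miR-92a was therefore not detectable with this probe at this depth in 9 libraries, and its change between genotypes was not tested with the others. In an edgeR fit with no filter on low counts, its log2 fold change was 0.28 (95% interval -0.02 to 0.58; edgeR adjusted p = 0.539). The other members were then between 0.016 (miR-18a) and 0.22 (miR-106a/miR-17). Its normalised means were 93.6 ± 6.64 and 99.0 ± 12.5 (SD, n = 5 per genotype).

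No member passed the test between the genotypes. In edgeR's quasi-likelihood fit, 0 of the 7 members tested and 0% of all 116 probes had an adjusted p under 0.05, and 0 of 7 against 9.48% had an unadjusted p under 0.05. limma-voom also called 0% of the 116 at the adjusted threshold, with 9.48% at an unadjusted p under 0.05. DESeq2 called 4.31% at the adjusted threshold, none of them a member, with 19% at an unadjusted p under 0.05. The normalised counts of the genotypes did not overlap for 0 of the 7 members, against 2.59% of the 116 probes. The median log2 fold change of the 7 was -0.03, with 2 above 0 and 5 below. That of the 116 was -0.00, with 50% below 0. The intervals of the 4 abundant members lay within -0.29 and 0.32, so changes of more than 1.25-fold up or 0.817-fold down were outside all 4. Those of the 3 scarce members reached -0.68 and 0.41. These values are relative to the typical probe: scaling to the housekeeping mRNAs instead moved the median of the 116 to 0.46 and the 7 members to between 0.23 and 0.46, all with an edgeR adjusted p of 0.0898 or more. The p-values measure the spread between these cultures, some of which may be technical. Without mutant 9 and 10, all 7 members had log2 fold changes above 0, from 0.08 for miR-19a to 0.19 for miR-106a/miR-17, and 0 of 7 passed (edgeR adjusted p of 0.285 or more), while 4.31% of the 116 probes did, with 19.8% at an unadjusted p under 0.05.

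**Figure D2:**
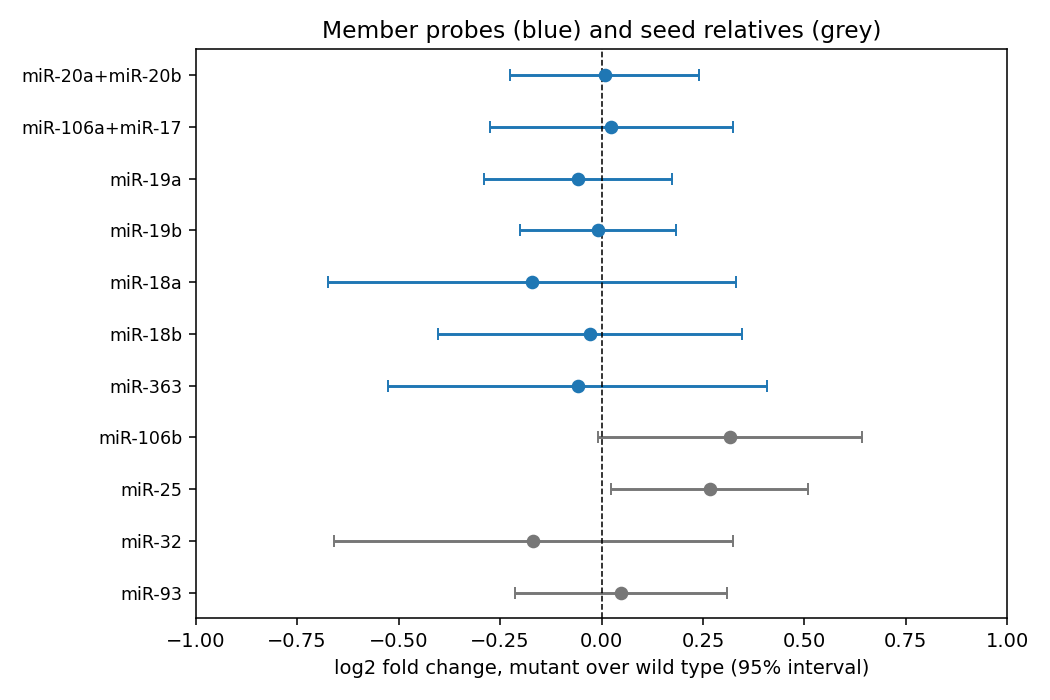
Log2 fold change, mutant over wild type, with its 95% interval from edgeR for the 7 member probes tested (blue) and 4 other miRNAs with a shared seed (grey), from all 10 libraries. The intervals of all 7 members include 0, and those of the abundant members are the narrower ones.

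With all 10 libraries, the mutant cultures differed more among themselves than the wild type ones did, for most members as for most probes. Without mutant 9 and 10 this was no longer so. Those 2 libraries held the lowest mutant values of every member, and no wild type library was left out to match. The coefficient of variation of the normalised counts was higher in mutant than in wild type samples for 6 of the 7 members, against 82.8% of the 116 probes. It went from 3.83% to 10.9% for miR-19b, from 6.80% to 14.1% for miR-20a/miR-20b and from 12.3% to 17.8% for miR-106a/miR-17. miR-18a had the widest gap, 10.8% against 32.7%, and miR-18b was the exception with 20.2% against 16.6%. The median over the 116 probes was 12.2% for wild type and 19.8% for the mutant, above those of miR-19b and miR-20a/miR-20b in both genotypes. With 3 mutant libraries left, against 5 of wild type, the mutant value was the higher for 2 of the 7 members, miR-19b (7.22%) and miR-19a (5.49%), and for 48.3% of the 116 probes. It was then 8.48% for miR-18a, 7.12% for miR-106a/miR-17, 4.86% for miR-20a/miR-20b and 10.97% for miR-363, all below wild type.

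Together the 8 probes took 17.7% ± 1.08 (wild type) and 17.4% ± 3.61 (mutant) of mouse miRNA counts (SD, n = 5 per genotype). The share was 16.9%, 16.6%, 18.04%, 17.6% and 19.3% in wild type 1 to 5, and 20.3%, 20.2%, 19.6%, 13.2% and 13.8% in mutant 6 to 10. Mutant 6, 7 and 8 lay above the wild type range and mutant 9 and 10 below it, so the mutant mean fell in a gap where no mutant library was. With the 116 probes as the total, or with background subtracted, mutant 8 (20.8% in both) was inside the wild type range, which reached 21.1% and 21.2%. The summed raw counts of the members in mutant 9 and 10, 46716 and 45672, were inside the wild type range of 42230 to 47725. Their totals of mouse miRNA counts, 354826 and 331407, were the highest of the 10 libraries. In those libraries miR-146a alone took 4.26% and 6.41% of mouse miRNA counts, against 0.175% to 1.33% elsewhere. With miR-146a left out of the total, mutant 9 and 10 had shares of 13.8% and 14.7%, still under the wild type range of 16.8% to 19.6%. Without mutant 9 and 10 the mutant mean was 2.35 percentage points above that of the wild type, instead of 0.28 below it. Leaving out 1 library at a time put the difference between -1.004 (without mutant 6) and 0.78 (without mutant 9) percentage points, and at 0.13 without wild type 5 and 0.63 without mutant 10.

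**Figure D3:**
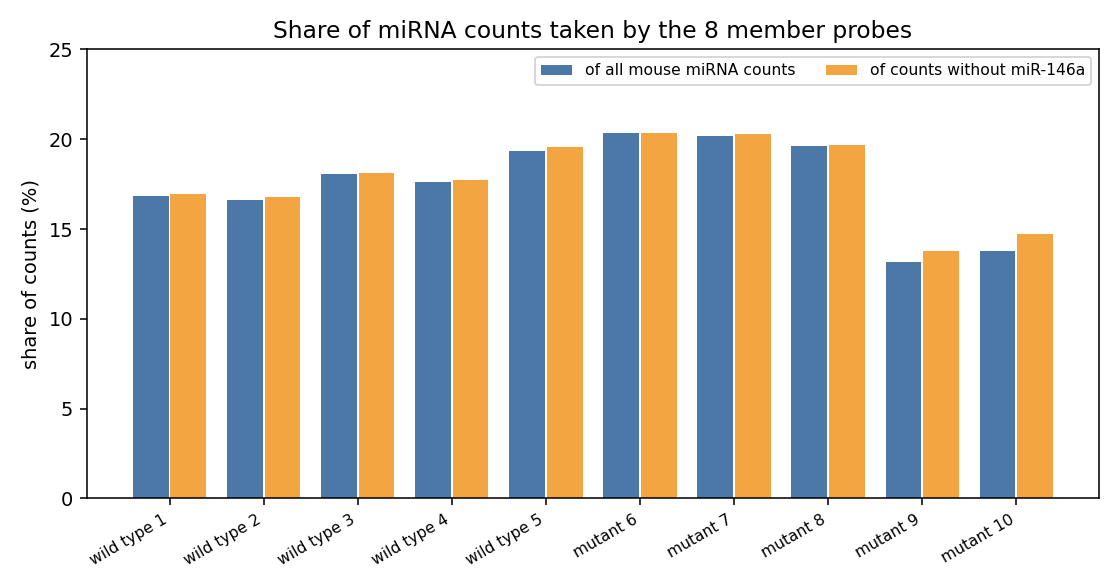
Share of mouse miRNA counts (%) taken by the 8 member probes in each library, with the total as measured (blue) and with miR-146a left out of the total (orange). Mutant 6, 7 and 8 lie at 19.6% to 20.3% and mutant 9 and 10 at 13.2% and 13.8%, on either side of the wild type libraries at 16.6% to 19.3%.

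The makeup of the members' counts was given almost wholly by 2 seeds. These are shares of counts with background not subtracted, from probes that may differ in efficiency. Each probe of the miR-17 seed reads 2 miRNAs, so the shares are not the makeup of the molecules. The 2 probes of the miR-17 seed gave 71.0% ± 1.01 (wild type) and 71.9% ± 0.775 (mutant) of the members' counts (SD, n = 5 per genotype), and ranged from 70.2% to 73.0% over all 10 libraries. The miR-19 seed gave 27.1% ± 1.10 and 26.3% ± 0.915. The miR-18 seed gave 1.19% ± 0.0912 and 1.10% ± 0.141, and was less even among libraries, at 0.863% to 1.33%, with miR-18a at 0.418% to 0.754%. For the miR-92 seed the values were 0.638% ± 0.0624 and 0.632% ± 0.0404, of which miR-92a, at background, was 0.196% and 0.208%.

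The balance of the products was compared within each library as the log2 ratio of a member to the miR-20a/miR-20b probe, which needs no scaling between libraries. None of the 6 ratios differed between the genotypes beyond the spread of the libraries. For miR-106a/miR-17 the ratio was -0.10 ± 0.10 for wild type and -0.09 ± 0.10 for the mutant (SD, n = 5 per genotype; exact two-sided permutation p = 0.802). The ratio of miR-19a was -0.80 ± 0.04 and -0.87 ± 0.08 (exact permutation p = 0.111), and that of miR-19b -2.61 ± 0.07 and -2.62 ± 0.12 (exact permutation p = 0.833). miR-19a had the smallest p of the 6, with a difference of -0.07. For miR-18b the ratio was -6.25 ± 0.20 and -6.27 ± 0.10 (exact permutation p = 0.873), and for miR-363 -6.39 ± 0.22 and -6.46 ± 0.20 (exact permutation p = 0.603). After Benjamini-Hochberg adjustment over the 6 ratios, all values were 0.643 or more, and the smallest exact p that 5 against 5 allows is 0.00794.

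With all libraries, miR-18a was the member whose balance varied most. Its ratio to miR-20a/miR-20b was -5.70 ± 0.12 for wild type and -5.94 ± 0.37 for the mutant (SD, n = 5 per genotype; exact permutation p = 0.214, adjusted p = 0.643). The mutant ratios were -5.58, -5.68, -5.87, -6.04 and -6.51 in mutant 6 to 10, and the wild type ratios ran from -5.88 to -5.56. Mutant 9 and 10 were thus below every wild type library, and mutant 10 lowest, with 0.0109 counts of miR-18a for each count of miR-20a/miR-20b. Without these 2 libraries the difference was -0.01 instead of -0.23. Counting error accounts for an SD of about 0.09 in the mutant ratios.

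**Figure D4:**
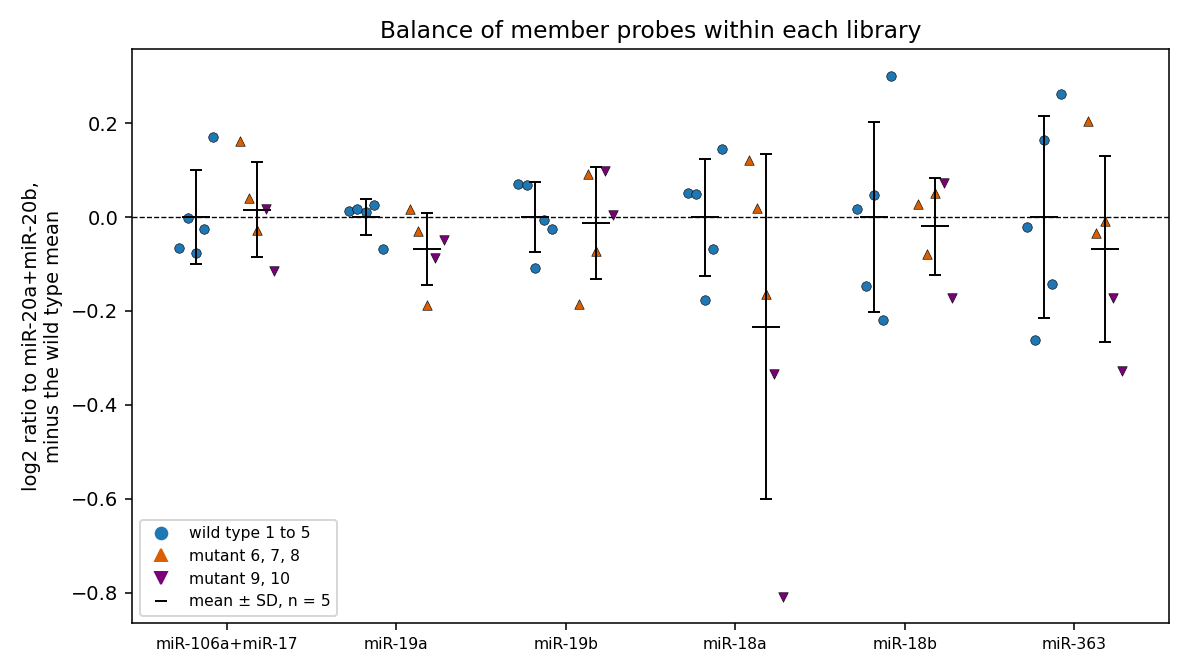
Log2 ratio of each member to the miR-20a/miR-20b probe of the same library, minus the wild type mean, with the mean ± SD of each genotype (n = 5). The values of miR-18a in mutant 9 and 10 lie below all wild type values, while the mutant means of the other 5 members are within 0.07 of 0.

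miR-18a and miR-18b are paralogs with separate probes, each named for a product of 1 cluster. Cross-binding between these probes was not tested. The count of miR-18a was 1.50, 1.68, 1.25, 1.62 and 1.31 times that of miR-18b in wild type 1 to 5, and 1.56, 1.57, 1.26, 1.11 and 0.941 times in mutant 6 to 10. Mutant 9 and 10 were below the wild type range, and mutant 10 was the only library with more miR-18b than miR-18a counts. With the mean of the negative controls subtracted, mutant 9 and 10 had ratios of 1.13 and 0.922, against 1.32 to 1.97 for the wild type. This pair was singled out after its values were seen and was not tested.

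How closely the members kept a constant ratio to each other was measured by the SD of the log2 ratio of 2 probes over the 10 libraries, a smaller SD meaning that they moved together. Over the 21 pairs of members the median SD was 0.188, from 0.0670 to 0.312, and all 21 were below the median of 0.475 over the 6670 pairs of the 116 probes. Without mutant 9 and 10 the medians were 0.143 and 0.365, and all 21 pairs were again below that of all probes. Among the 21 probes with a mean count at least that of miR-19b, the median was 0.344. The values share libraries and probes and are a description. The closest pair was miR-19a and miR-20a/miR-20b, with an SD of 0.0670 and 0.505 to 0.585 counts of miR-19a for each count of miR-20a/miR-20b. Next were miR-19b with miR-20a/miR-20b (0.0935) and miR-106a/miR-17 with miR-20a/miR-20b (0.0950).

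These SDs were 3.68, 3.20 and 6.04 times those from counting error alone, which does not include the noise of ligation, hybridisation and lane. The scarce members of miR-106a-363 were nearer to that limit. miR-18b and miR-363 had an SD of 0.129, against 0.140 from counting error, so no variation of their ratio was detectable at this depth. miR-18b with miR-106a/miR-17 had 0.125 against 0.0968. The 4 widest pairs all held miR-18a, up to 0.312 with miR-19b, and for that pair the SD was 0.0983 among wild type and 0.423 among mutant libraries. In mutant 6, 7 and 8 alone the SD of that pair was 0.224, smaller but still above that of the wild type. The place of the miR-18a pairs as the widest rests on mutant 9 and 10: without them that pair had an SD of 0.143 over the other 8 libraries. miR-18a with miR-106a/miR-17, at 0.0798, was then the next closest pair after miR-19a with miR-20a/miR-20b (0.0724).

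**Figure D5:**
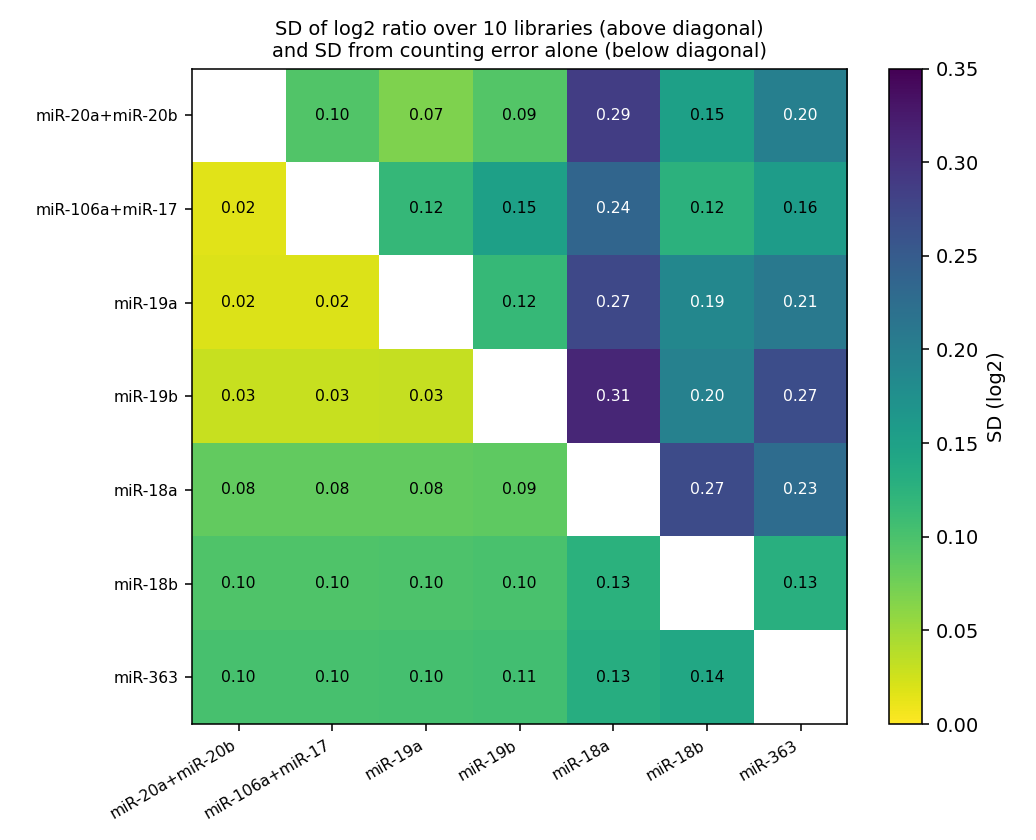
SD of the log2 ratio of each pair of members over the 10 libraries (above the diagonal) and the SD expected from counting error alone (below it). The 4 highest SDs, 0.271 to 0.312, belong to pairs with miR-18a, and the pair of miR-18b and miR-363 is at the level of counting error.

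The abundant members were also near the top when the 116 probes were ranked by the SD of their ratio to the sum of the other members. That sum is of raw counts and comes mostly from miR-20a/miR-20b, miR-106a/miR-17 and miR-19a. Those probes were thus ranked largely against each other. miR-20a/miR-20b (0.0586), miR-19a (0.0797) and miR-106a/miR-17 (0.0971) had ranks 1 to 3, and miR-19b (0.112) rank 5. miR-18b, miR-363 and miR-18a had ranks 12, 25 and 44, with SDs of 0.142, 0.181 and 0.261, and 33.9% of the probes outside the clusters had a smaller SD than miR-18a. Without mutant 9 and 10, miR-18a had rank 8 (0.0916), the 4 abundant members ranks 2 to 13, and miR-18b and miR-363 ranks 26 and 37. The 3 probes outside the clusters with the smallest SD were miR-1186 (0.104, rank 4), let-7d (0.114, rank 6) and miR-1960 (0.122, rank 7), over the same 10 libraries. This measure is also small for a probe whose count is steady, and raw counts of these 3 were so, at 309 to 394, 5285 to 6622 and 109 to 139. The median SD of the 109 probes outside the clusters was 0.329.

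The panel held 6 further miRNAs with the seed of a member, among the 442 of 566 probes matched to a RefSeq sequence. Of these, 4 were tested: miR-106b, miR-93 and miR-25 of the third paralogous cluster, in an intron of Mcm7 on chromosome 5, and miR-32. Their sequences show which bases outside the seed separate them from the members.
miR-106b: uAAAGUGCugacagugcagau
miR-93: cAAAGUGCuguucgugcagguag
miR-25: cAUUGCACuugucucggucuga
miR-32: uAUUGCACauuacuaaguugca
In edgeR 0 of the 4 passed the adjusted threshold. miR-25, which has the seed of miR-92a, counted 5544 to 12462, and miR-32, with the same seed, 208 to 512. Their log2 fold changes were 0.27 (95% interval 0.02 to 0.51; edgeR adjusted p = 0.373) and -0.17 (-0.66 to 0.32; edgeR adjusted p = 0.748). In every library the miR-25 probe thus had more counts than the probes of miR-363 and miR-92a. For the miR-17 seed, miR-106b had 0.32 (-0.01 to 0.64) and miR-93 0.05 (-0.21 to 0.31), with counts of 1283 to 3166 and 761 to 1158, well under those of the shared probes. miR-367 and miR-92b, the others with the seed of miR-92a, counted 45 to 87 and 15 to 30 and did not pass the filter. No probe for the opposite arm of a cluster hairpin was found on the panel by name.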

How the data were processed

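The authors deposited raw counts, whole numbers with no normalization as far as they show, in 2 tables with identical values. Per the labels' protocols, miRNeasy kits gave the total RNA, low-purity preparations were dropped, and 100 ng entered each nCounter assay. Further steps of the authors were not given in the sources used here. Groups and sample numbers came from the sample titles.

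The 116 mouse miRNA probes above the mean + 2 SD of the negative controls in at least 5 libraries were fitted on genotype by robust quasi-likelihood in edgeR 4.0.16 under R 4.3.3, after TMM scaling (factors of 0.872 to 1.11), with Benjamini-Hochberg adjustment over all 116 at 0.05. Approximate 95% intervals use the SE from the F statistic and its degrees of freedom. Counting error covers counting only. Shares have no test. An exact two-sided permutation test compared each log2 ratio. The edgeR step was tested on simulated data. No pair of libraries of the same genotype was alike within sampling noise (lowest chi-square per degree of freedom 16.3).

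Alternatives were 5 other scalings, 2 other filters, background subtraction, DESeq2 1.42.0, limma 3.58.1 with voom weights, no robust estimation, other denominators, another reference probe, and leaving out libraries. Coefficients of variation and pair SDs without mutant 9 and 10 were added after the data were seen. Named were all members, every seed relative on the panel, the 3 probes most like the members and miR-146a. The members, lists and tests were chosen with earlier results of these data known.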

Additional observations from a re-analysis of the deposited data

Results flagged for a closer look

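Among 30 sets of 5 values (each member's normalised count, each ratio and the share, by genotype), 2 had a sample far from the others, and chance gives this in about 1 set in 20. In wild type 5, miR-18a had a normalised count of 403, against 315 to 336 in the other wild type libraries. In the same library the log2 ratio of miR-19a to miR-20a/miR-20b was -0.87, against -0.79 to -0.77 in the others. Without wild type 5 the log2 fold change of miR-18a was -0.10 (edgeR), as with all libraries below 0, and the difference of the miR-19a ratio was -0.084 (exact permutation, adjusted p = 0.286), against -0.067 (adjusted p = 0.643) with all libraries.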

How the results depend on the processing

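With the main settings, the 7 log2 fold changes and the genotype differences of the 6 ratios were small. The largest in size were those of miR-18a, -0.17 and -0.23. Many changed sign with the setting without passing a test: over 154 alternative values of the members' fold changes, 0 passed (smallest adjusted p 0.0898, edgeR). The median over the 116 probes was 0.46 under housekeeping and 0.20 under positive-control scaling, and the members moved with it. Under housekeeping scaling miR-18a was at 0.23, miR-18b 0.41, miR-19a 0.38, miR-19b 0.44 and miR-363 0.35, and under positive-control scaling at 0.0073, 0.16, 0.14, 0.19 and 0.13. With no filter they were at 0.016, 0.18, 0.13, 0.19 and 0.14, and without mutant 9 and 10 at 0.13, 0.12, 0.076, 0.089 and 0.18. The miR-20a/miR-20b probe was at -0.014 under total-count scaling, -0.0011 with the stricter filter, -0.0035 in limma-voom and -0.056 after background subtraction, where miR-106a/miR-17 was at -0.038. Leaving out 1 library at a time gave ranges of -0.053 to 0.14 for miR-106a/miR-17, -0.046 to 0.12 for miR-20a/miR-20b, -0.12 to 0.060 for miR-19a, -0.055 to 0.083 for miR-19b, -0.10 to 0.088 for miR-18b, -0.17 to 0.077 for miR-363 and -0.30 to -0.02 for miR-18a. The ratio differences of miR-18b and miR-363 were 0.060 and 0.0092 after background subtraction and 0.00068 and 0.054 without mutant 9 and 10, and with 1 library left out they ran from -0.074 to 0.056 for miR-18b, -0.021 to 0.058 for miR-106a/miR-17 and -0.040 to 0.030 for miR-19b, and stayed below 0 at -0.32 to -0.089 for miR-18a, -0.088 to -0.038 for miR-19a and -0.14 to -0.0023 for miR-363. The number of probes called was 0 with all libraries in edgeR, 5 in DESeq2, 5 without mutant 9 and 10, and 0 to 1 with 1 library left out. The cause of these changes was not tested. No paired analysis was made, because the labels name no pairs of cultures, and whether any were matched is not known. Low counts limit the precision of miR-18a, miR-18b and miR-363, and miR-92a was not above background in 9 libraries.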
